A study of Mus musculus with 6 samples.

Results

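The glutathione and antioxidant enzyme genes of epididymal fat were compared between Pparg ldi/+ and wild-type (WT) mice. They were chosen by gene symbol, with earlier results of these data known. The families were the glutathione S-transferases of the alpha, mu, pi, theta, omega, zeta and kappa classes, the microsomal glutathione transferases and the glutathione peroxidases. The peroxiredoxins, superoxide dismutases, thioredoxin reductases and quinone reductases were also included, together with Cat, Gsr, Gclc, Gclm, Txn1, Txn2 and Srxn1. Gpx5 was left out. A gene entered if a probe set of the array was annotated to it and to no other gene, which gave 48 of the 18193 genes so annotated. Prdx1, Prdx5 and Prdx6 were not analysed here. The arrays held RNA of 3 Pparg ldi/+ mice, which carry 1 copy of a Pparg allele that the labels tie to lipodystrophy, and of 3 litter-matched WT mice. All 6 were males of 10 weeks on a mixed C57BL6;129Sv background, and each Affymetrix MOE430v2.0 array took the RNA of 1 animal. The labels do not say what the ldi allele alters in the gene.

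Glutathione is the main small thiol of the cell. Glutathione transferases couple it to reactive lipids and foreign compounds, and glutathione peroxidases use it to reduce peroxides, after which glutathione reductase restores it with NADPH. Superoxide dismutases turn superoxide into hydrogen peroxide, which catalase, the peroxidases and the peroxiredoxins remove, and thioredoxin and its reductases recharge the peroxiredoxins. Many of these genes are targets of the transcription factor NRF2 (Nfe2l2), which KEAP1 holds in check. Fat cells, rich in lipid, form reactive aldehydes when their lipids are oxidised.

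Values are array signals scaled to a common trimmed mean, and differences are on the scale of log2(signal + 32), Pparg ldi/+ minus WT, tested with limma across all genes. "Rose" and "fell" mean a Benjamini-Hochberg adjusted p under 0.05. Pparg, the altered gene, had signals of 1732, 1709 and 1901 on the Pparg ldi/+ arrays, against 4378, 4440 and 4998 on the WT arrays. Its log2 difference was -1.35 (SE 0.084, limma adjusted p = 1.04e-05). Adipocyte markers were present on every array, with a summed signal of 97516 to 111852 in Pparg ldi/+ and 188611 to 211039 in WT, and 9 of 10 tested fell. All 14 macrophage markers rose, with a summed signal of 114108 to 116561 in Pparg ldi/+ and 43773 to 56951 in WT. Lymphocyte markers rose in 3 of 4 tested, with sums of 2599 to 3375 in Pparg ldi/+ and 795 to 1134 in WT; Cd79b, 1 of the 3, was under the filter on dim probe sets in WT. Endothelial markers fell in 7 of 10, with sums of 10265 to 12486 in Pparg ldi/+ and 19334 to 20940 in WT, and mesothelial markers fell in 7 of 10, with sums of 7577 to 8326 in Pparg ldi/+ and 12645 to 15844 in WT. No marker of these 5 lists was at 0 on any array. In such bulk tissue, fewer cells of a type and less RNA per cell cannot be told apart, and the part of cell makeup in the results that follow was not tested. Epididymal transcripts were present on Pparg ldi/+ arrays 1 and 2, where 18 epididymis markers summed to 25648 and 34657, against 904 on Pparg ldi/+ array 3 and 916 to 1724 on the WT arrays. Single markers went another way: Cuzd1 had 1030 on WT array 3, against 995 and 743 on Pparg ldi/+ arrays 1 and 2. Lcn5 had 457 on WT array 1, and at most 41.4 in Pparg ldi/+. Testis and sperm markers summed to 7131 on Pparg ldi/+ array 2 and to 828 and 869 on the others of that genotype, against 724 to 1167 on the WT arrays.

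The antioxidant genes did not move as a block. Of 41 bright enough to be tested, 12 fell and 7 rose in Pparg ldi/+ fat. Among all 11201 genes tested, 16.4% fell and 16.3% rose, together 32.7%, so the share of the enzyme genes that rose (17.1%) lay near that of all genes, and the share that fell (29.3%) above it. A call with a change of at least 2-fold was made for Gsta3, Mgst3, Gstz1, Gstm1 and Gstm5, 5 of the 41 (12.2%), against 8.36% of all tested genes. The median log2 difference was -0.14 over the 41 genes and -0.00433 over all tested genes. Falls were found among transferases of the alpha, theta, omega, zeta and kappa classes, Mgst3, the peroxidases Gpx7 and Gpx8 of the endoplasmic reticulum, Cat, Prdx2 and the cytosolic and extracellular superoxide dismutases. Rises were found among 3 mu-class transferases, the mitochondrial and reticulum peroxiredoxins Prdx3 and Prdx4, Srxn1 and Txnrd1. In 26 of the 41 (63.4%) the groups did not overlap, against 47.6% of all tested genes. Pparg ldi/+ lay above WT in 11 of these, where 23.6% of all tested genes did, and below WT in 15, where 24% did. An exact two-sided permutation test of the 6 values of any 1 gene cannot go below p = 0.1 with 3 against 3 mice. Groups that do not overlap always reach that value, so the test adds nothing for these 26. Each of the 41 enzyme genes had a mean above the filter on dim probe sets (7.46 on the log2 scale) in both genotypes, whereas 551 of all 11201 tested genes were under it in 1 genotype. The 7 genes too dim to be tested were Gsta2, Gstm6, Gstp3, Gstt4, Gsto2, Gpx2 and Gpx6.

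**Figure D1:**
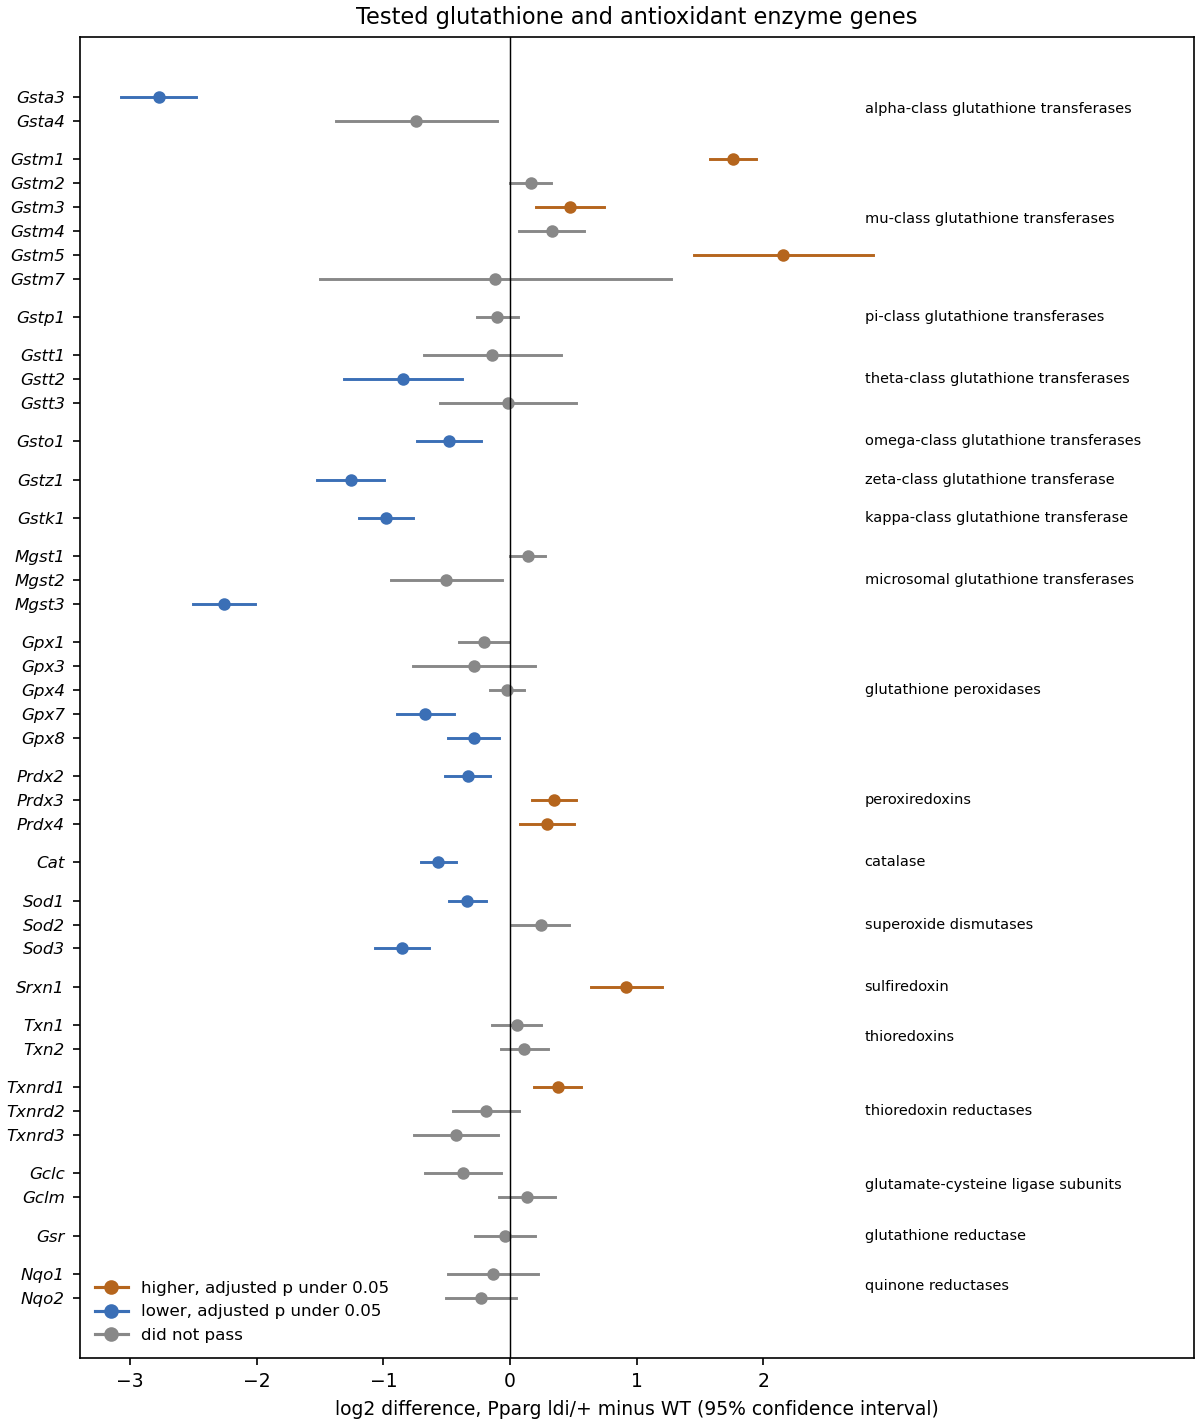
The log2 difference of each of the 41 tested enzyme genes (x axis, Pparg ldi/+ minus WT; points are estimates and lines 95% confidence intervals from limma), arranged by enzyme class. The range runs from -2.78 for Gsta3 to 2.16 for Gstm5, and the 22 grey genes did not pass the adjusted threshold.

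**Figure D2:**
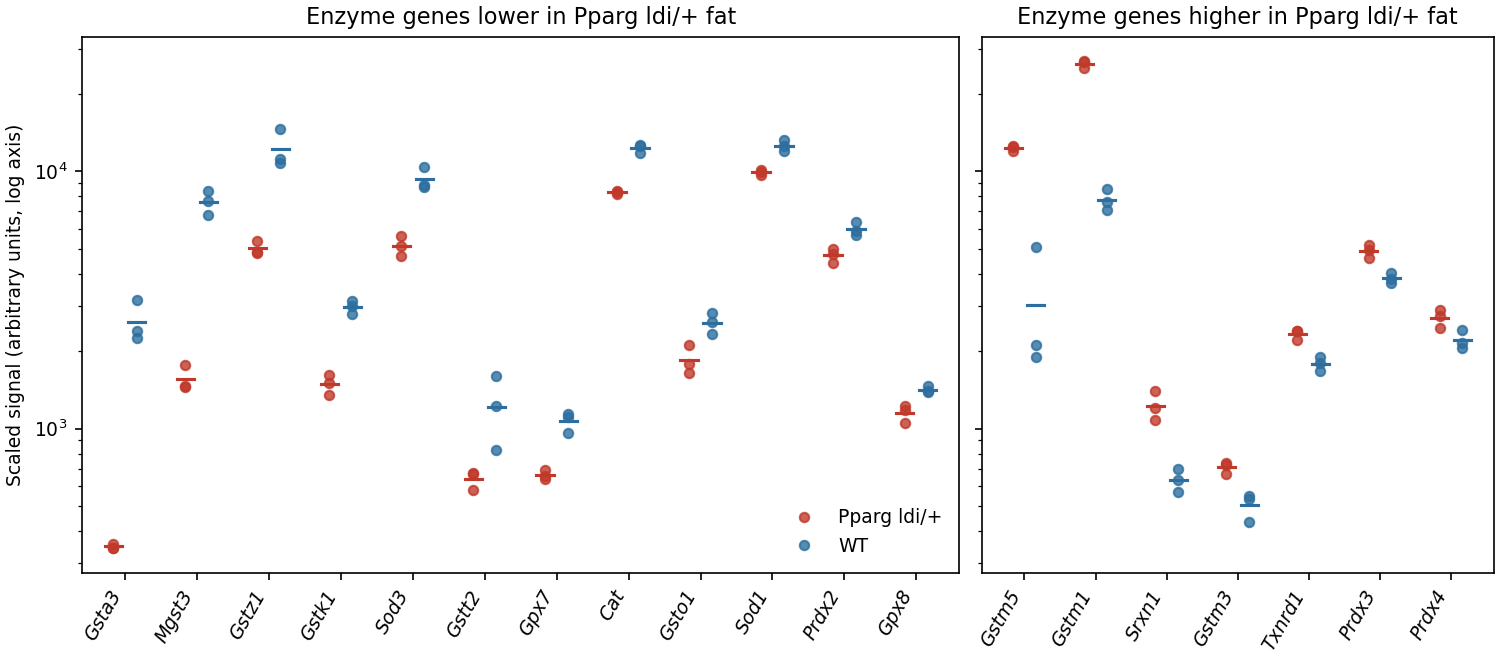
Scaled signal (log axis) of the 12 enzyme genes that fell and the 7 that rose, with 1 point per mouse, Pparg ldi/+ left of WT, and short lines for the means (n = 3 each). The groups of points do not overlap in any of the 19 genes, and the WT points of Gstm5 and Gstt2 are the most widely spread.

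The largest fall among the 48 genes was that of an alpha-class transferase. Gsta3, which in the mouse detoxifies the epoxide of aflatoxin, had signals of 358, 343 and 345 on the Pparg ldi/+ arrays, against 2389, 3162 and 2257 on the WT arrays. The groups were far apart, and the spread was small in Pparg ldi/+. Gsta3 fell 6.85-fold (log2 -2.78 with SE 0.13 and a 95% confidence interval of -3.07 to -2.48, limma adjusted p = 2.73e-06), and its difference ranked 27 from the lowest of all 11201 genes. A second probe set of Gsta3 differed by -1.47, also with no overlap, and with the mean of both the fall was -2.12. Gsta4, which conjugates the lipid aldehyde 4-hydroxynonenal and has been studied in fat cells for that reason, had signals of 383, 632 and 247 in Pparg ldi/+, against 602, 648 and 800 in WT. Its groups overlapped through Pparg ldi/+ array 2, and its difference of -0.74 did not pass (limma adjusted p = 0.0734). Epididymis and testis marker sums were also largest on that array, and the part of such transcripts in the Gsta4 signal was not tested. Gsta4 passed under 3 of 19 alternatives: without Pparg ldi/+ array 2 (-1.06), with Pparg ldi/+ array 3 alone (-1.35) and with unscaled values (-0.64). Without Pparg ldi/+ array 3 it was at -0.43 (limma adjusted p = 0.187), and leaving out Pparg ldi/+ array 1 or any WT array gave limma adjusted p from 0.105 to 0.183. Gsta2 was too dim to be tested, at 12.7 to 76.0 in Pparg ldi/+ and 22.5 to 68.3 in WT.

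Mu-class transferases took the opposite direction. Of the 6 tested, 3 rose and none fell (0), where 16.3% of all genes rose. Gstm1, a cytosolic enzyme that conjugates electrophiles with glutathione, had signals of 26555, 26853 and 25247 in Pparg ldi/+, against 7608, 7061 and 8545 in WT. It rose 3.39-fold (log2 1.76, 95% confidence interval 1.58 to 1.94, SE 0.08, limma adjusted p = 2.72e-06). Its 3 other probe sets gave 1.65, 1.67 and 2.21, each with no overlap between the groups. Gstm5 stood at 12446, 12003 and 12533 in Pparg ldi/+, against 1906, 2109 and 5074 in WT. Every Pparg ldi/+ array was above every WT array, while WT array 3 lay well above the other WT arrays. Gstm5 rose 4.47-fold (log2 2.16, 95% confidence interval 1.45 to 2.86, SE 0.31, limma adjusted p = 0.000936), and at 2.60 without WT array 3.

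The other mu-class genes moved less or not past the threshold. For Gstm3 the probe set read gave 668, 724 and 738 in Pparg ldi/+, against 433, 547 and 531 in WT, a rise of 0.48 (SE 0.12, limma adjusted p = 0.0149). That probe set has the suffix s_at, which Affymetrix gives to sets shared by several transcripts. A dimmer set annotated to Gstm3, under the filter on dim probe sets, went further. It had 445, 291 and 258 in Pparg ldi/+, against 42.4, 58.1 and 54.8 in WT, and the mean of both sets differed by 1.28. The rise of the set read did not pass without Pparg ldi/+ array 3 (0.45, limma adjusted p = 0.0561) or with that array alone (0.53, limma adjusted p = 0.135). Gstm2 had 5418, 5098 and 5645 in Pparg ldi/+, against 4568, 4968 and 4899 in WT, and its difference of 0.16 did not pass (95% confidence interval -0.00204 to 0.33). Gstm4 was at 0.33 (limma adjusted p = 0.0541), also with every Pparg ldi/+ array above the WT arrays. Gstm7 was the most variable of the tested enzyme genes, with 784, 515 and 255 in Pparg ldi/+ and 342, 250 and 1518 in WT. Its log2 difference of -0.12 has an SE of 0.61, so neither a rise nor a fall could be told. Without WT array 3 it was 0.63 and did not pass (limma adjusted p = 0.267). Its second probe set gave 0.12 with overlapping groups. Gstm6, too dim to be tested, had 243, 191 and 159 in Pparg ldi/+ and 93.2, 48.9 and 211 in WT.

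In the RefSeq annotation the mu-class genes lie next to each other on chromosome 3 in the order Gstm5, Gstm7, Gstm6, Gstm3, Gstm2, Gstm1, Gstm4, with at most 1 other annotated gene between neighbours. WT array 3 was the highest of its genotype for Gstm5, Gstm7 and Gstm6, the 3 genes at the head of this order. It was also the highest for Gstm1, the middle for Gstm2 and Gstm3, and the lowest for Gstm4. Among all tested genes WT array 3 was the highest of its genotype for 38.8%, and among the tested enzyme genes for 26.8%. The epididymis marker Cuzd1 was also highest of its genotype on WT array 3, and the part of epididymal transcripts in these values was not tested. Gstm1 and Gstm5, whose rises were the largest, are not neighbours. Mu-class genes resemble each other in sequence, and the part of probes that bind transcripts of more than 1 of them was not tested.

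**Figure D3:**
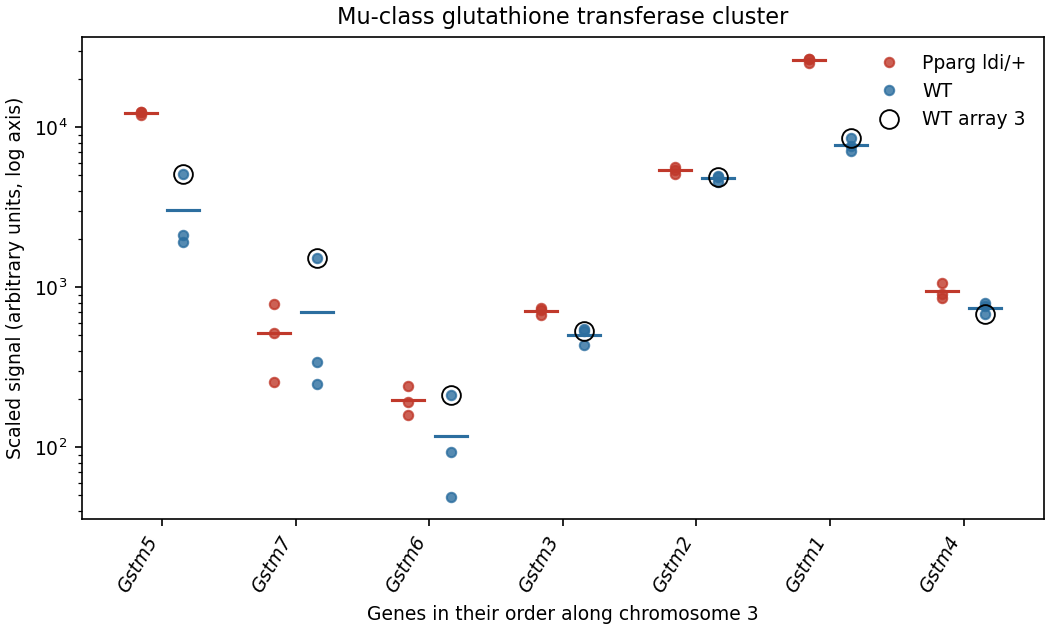
Scaled signal (log axis) of the 7 mu-class genes in their order along chromosome 3, with 1 point per mouse, Pparg ldi/+ left of WT, short lines for the means (n = 3 each) and an open circle around WT array 3. WT array 3 is the high WT point for Gstm5 (5074), Gstm7 (1518) and Gstm6 (211).

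Among the remaining cytosolic classes the changes that passed were falls. Gstz1, the maleylacetoacetate isomerase of tyrosine breakdown, had 5391, 4882 and 4802 in Pparg ldi/+, against 10741, 14608 and 11176 in WT. It fell 2.39-fold (log2 -1.26, SE 0.12, limma adjusted p = 8.48e-05). Gsto1, an omega-class enzyme that reduces dehydroascorbate, stood at 1781, 1652 and 2116 in Pparg ldi/+ and 2826, 2590 and 2344 in WT, with all Pparg ldi/+ arrays below WT. Its fall of 0.48 on the log2 scale (limma adjusted p = 0.0109) did not pass where its slightly brighter x_at probe set was read (-0.35 with overlapping groups, limma adjusted p = 0.0777) or with Pparg ldi/+ array 3 alone (-0.28, limma adjusted p = 0.275). Affymetrix gives the suffix x_at to sets whose probes may cross-hybridise. Gsto2 next to it was too dim to be tested, with 138, 125 and 109 in Pparg ldi/+ and 100, 100 and 85.3 in WT. Its groups did not overlap, with all Pparg ldi/+ arrays above WT.

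Gstt2, of the theta class, had 673, 667 and 580 in Pparg ldi/+, against 1221, 829 and 1596 in WT. It fell 1.80-fold (log2 -0.85, SE 0.21, limma adjusted p = 0.0131), and with Pparg ldi/+ array 3 alone the difference of -0.98 did not pass (limma adjusted p = 0.087). Gstt1 and Gstt3, which neighbour it on chromosome 10, did not pass, at -0.14 and -0.02. Gstt1 had 2536, 3285 and 1833 in Pparg ldi/+ and 2171, 2531 and 3722 in WT, and Gstt3 had 462, 551 and 467 in Pparg ldi/+ and 418, 379 and 774 in WT. WT array 3 was the highest WT array for all 3 of these genes, as it was for 38.8% of all tested genes. Gstt4 was dim on every array, at 18.6, 162 and 8.90 in Pparg ldi/+ and 6.23, 16.2 and 9.22 in WT, with its highest value on the Pparg ldi/+ array that also held testis and sperm transcripts. Gstp1, the pi-class enzyme, stood at 8260, 7744 and 8438 in Pparg ldi/+ and 9203, 8207 and 8853 in WT with overlapping groups (log2 -0.10, 95% confidence interval -0.26 to 0.06). Gstp3 had 201, 193 and 214 in Pparg ldi/+ and 81.3, 105 and 96.9 in WT. Its groups did not overlap, but the filter on dim probe sets kept it from the test, and without that filter it passed at 0.90 (limma adjusted p = 0.015).

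The membrane and mitochondrial transferases held another of the largest falls. Mgst3, an enzyme of the endoplasmic reticulum that also reduces lipid hydroperoxides, had 1457, 1768 and 1471 in Pparg ldi/+, against 6798, 7668 and 8372 in WT. It fell 4.79-fold (log2 -2.26, 95% confidence interval -2.50 to -2.02, SE 0.11, limma adjusted p = 2.73e-06), rank 55 from the lowest of all genes. A second, dimmer probe set gave -0.85, and the mean of both gave -1.55. Mgst1, found in the reticulum and the outer mitochondrial membrane, did not pass, at 21442, 22237 and 21771 in Pparg ldi/+ and 20788, 19550 and 19141 in WT (log2 0.14, limma adjusted p = 0.11). Mgst1 passed with quantile normalisation (0.15, limma adjusted p = 0.0465) and with the mean of its probe sets (0.37, limma adjusted p = 0.0251). The other set in that mean, at a mean log2 value of 6.01, was under the filter on dim probe sets. Mgst2 was at -0.50 with overlapping groups (limma adjusted p = 0.0795). Gstk1, a kappa-class enzyme of mitochondria and peroxisomes that is also known in fat cells as DsbA-L for its part in adiponectin assembly, had 1512, 1622 and 1346 in Pparg ldi/+, against 2785, 3137 and 2995 in WT. It fell 1.97-fold (log2 -0.98, SE 0.09, limma adjusted p = 9.68e-05).

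The glutathione peroxidases, which reduce hydrogen peroxide and lipid peroxides, changed modestly. Of 5 tested, 2 fell and none rose (0), where 16.4% of all genes fell and 16.3% rose, and both are enzymes of the endoplasmic reticulum. Gpx7 had 639, 691 and 655 in Pparg ldi/+, against 1114, 1140 and 964 in WT, and fell 1.59-fold (log2 -0.67, SE 0.10, limma adjusted p = 0.00118). Gpx8 had 1186, 1056 and 1226 in Pparg ldi/+, against 1396, 1467 and 1384 in WT. Its fall was 0.29 on the log2 scale (limma adjusted p = 0.0373), and the call ended without any 1 of the 6 arrays. Gpx4, which protects membranes from phospholipid peroxides, did not pass, at 16755, 16042 and 16204 in Pparg ldi/+ and 17150, 16831 and 15864 in WT (log2 -0.02, 95% confidence interval -0.16 to 0.11). Gpx1, the cytosolic form, had 13283, 12889 and 13034 in Pparg ldi/+ and 16986, 13475 and 15044 in WT. Its groups did not overlap, but the difference of -0.21 did not pass (limma adjusted p = 0.0986). Gpx1 passed at -0.29 without WT array 2, and at -0.26 with quantile normalisation (limma adjusted p = 0.0271). Gpx3, which is secreted, varied most in WT, with 8142, 8201 and 6734 in Pparg ldi/+ and 10039, 6454 and 12576 in WT (log2 -0.28, limma adjusted p = 0.339). Gpx3 depended on single arrays: without WT array 2 it passed at -0.55, without WT array 3 it was at -0.07 (limma adjusted p = 0.797), and without Pparg ldi/+ array 3 at -0.19 (limma adjusted p = 0.603). Gpx2 and Gpx6 were too dim to be tested.

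Catalase, the peroxisomal enzyme that splits hydrogen peroxide, fell with little spread. Cat had 8341, 8425 and 8196 in Pparg ldi/+, against 12583, 12660 and 11828 in WT (log2 -0.57, 1.48-fold, SE 0.06, limma adjusted p = 0.000188). Its second probe set gave -0.33, again with no overlap. The spread of Cat within genotypes was smaller than that of 98.2% of tested genes.

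Of the 3 peroxiredoxins tested, which use a cysteine to reduce peroxides, 1 fell and 2 rose, where 16.4% of all genes fell and 16.3% rose. Prdx2, of the cytosol, had 4770, 4423 and 4976 in Pparg ldi/+, against 5664, 6355 and 5884 in WT, and fell 1.26-fold (log2 -0.34, SE 0.08, limma adjusted p = 0.00999). A much dimmer second probe set overlapped and pointed the other way (0.19), and the mean of both did not pass (-0.07). The call was also lost with unscaled values (-0.28) and with Pparg ldi/+ array 3 alone (-0.26). Prdx3, of mitochondria, had 4961, 4597 and 5172 in Pparg ldi/+, against 4035, 3681 and 3833 in WT, and rose 1.27-fold (log2 0.35, limma adjusted p = 0.00764), but did not pass with Pparg ldi/+ array 3 alone (0.42, limma adjusted p = 0.0678). Prdx4, of the endoplasmic reticulum, stood at 2741, 2465 and 2906 in Pparg ldi/+ and 2410, 2153 and 2059 in WT. It rose by 0.29 on the log2 scale (limma adjusted p = 0.0438), close to the threshold: the call ended under 10 of the 19 alternatives, among them leaving out Pparg ldi/+ array 1 or 3 or WT array 2 or 3. A second probe set of Prdx4 gave 0.53 with no overlap and another 0.24 with overlap.

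Srxn1, which repairs peroxiredoxins whose active cysteine has been overoxidised, rose. It had 1201, 1079 and 1402 in Pparg ldi/+, against 634, 695 and 570 in WT (log2 0.92, 1.89-fold, SE 0.12, limma adjusted p = 0.000636). Its 3 other probe sets gave 0.70, 0.79 and 0.89, and the groups overlapped in 1 of them. Txnrd1, the cytosolic thioredoxin reductase, stood at 2395, 2212 and 2394 in Pparg ldi/+ and 1805, 1676 and 1892 in WT. It rose 1.30-fold (log2 0.38, SE 0.08, limma adjusted p = 0.00767), but did not pass with Pparg ldi/+ array 3 alone (0.41, limma adjusted p = 0.101). Its other probe sets gave 0.49 with no overlap and 0.12 with overlap. Txnrd2, of mitochondria, was at -0.19 and did not pass, while with the mean of its probe sets it passed at -0.43 (limma adjusted p = 0.0245). The Txnrd2 set furthest down in that mean, at -0.995, was under the filter on dim probe sets. Txnrd3 was at -0.43 with every Pparg ldi/+ array below WT (limma adjusted p = 0.0517), and its other 2 probe sets gave -0.37 and -0.83, also without overlap. Txnrd3 passed under 4 of 19 alternatives: quantile normalisation, the brighter 30% of probe sets, the mean of its probe sets (-0.54) and without Pparg ldi/+ array 2 (-0.51). The thioredoxins themselves did not pass. Txn1 had 9126, 8884 and 8774 in Pparg ldi/+ and 9754, 7916 and 8273 in WT (log2 0.05, 95% confidence interval -0.14 to 0.25), and the mitochondrial Txn2 was at 0.11.

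Of the 3 superoxide dismutases, 2 fell and none rose (0), beside the same shares of all genes, 16.4% and 16.3%. Sod3, the extracellular form, had 5113, 4699 and 5589 in Pparg ldi/+, against 10400, 8704 and 8825 in WT. It fell 1.81-fold (log2 -0.85, SE 0.09, limma adjusted p = 0.000228), and its second probe set gave -0.67 with no overlap. Sod1, of the cytosol, had 9975, 10137 and 9679 in Pparg ldi/+, against 13224, 11973 and 12537 in WT, and fell 1.26-fold (log2 -0.34, SE 0.06, limma adjusted p = 0.00389). Of its 4 other probe sets the brightest gave -0.43 with no overlap, and the groups overlapped in the 3 dim ones. Among these, a set above the filter on dim probe sets pointed the other way (0.09). The mean of all did not pass (-0.20, limma adjusted p = 0.0773). With Pparg ldi/+ array 3 alone the set read was at -0.38 and did not pass either. Sod2, of mitochondria, stood at 7809, 7239 and 7972 in Pparg ldi/+ and 7196, 6756 and 5589 in WT. Its arrays did not overlap, and its difference of 0.24 did not pass (limma adjusted p = 0.095). A second bright probe set of Sod2 gave 0.38, also with no overlap. The set read passed at 0.32 without WT array 1, and at 0.29 with quantile normalisation (limma adjusted p = 0.0246).

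Glutathione synthesis and reduction and the quinone reductases gave no call (0 of 5), where 32.7% of all genes were called. Gclc, the catalytic subunit of the enzyme that starts glutathione synthesis, had 594, 553 and 496 in Pparg ldi/+, against 632, 845 and 689 in WT. All Pparg ldi/+ arrays were lower, and the difference of -0.37 did not pass (limma adjusted p = 0.0602). With the mean of its probe sets Gclc passed at -0.43, and without WT array 1 at -0.46. Gclm, the modifier subunit, was at 0.13. Gsr, glutathione reductase, had 1283, 1188 and 1013 in Pparg ldi/+ and 1200, 1207 and 1157 in WT (log2 -0.04, 95% confidence interval -0.27 to 0.20). Nqo1, a widely used readout of NRF2, was dim, with 238, 208 and 199 in Pparg ldi/+ and 245, 256 and 217 in WT (log2 -0.14, 95% confidence interval -0.49 to 0.22). Nqo2 had 557, 471 and 526 in Pparg ldi/+ and 539, 667 and 637 in WT (log2 -0.23, limma adjusted p = 0.184).

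**Figure D4:**
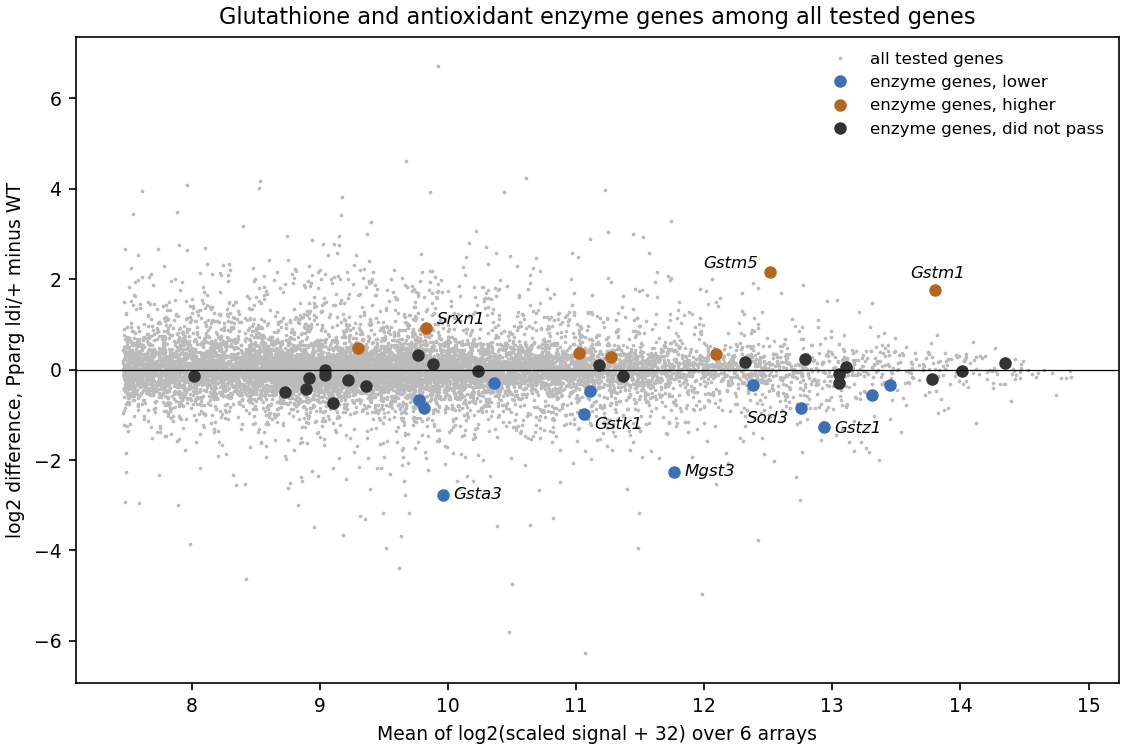
Each grey point is 1 of the 11201 tested genes, by its mean log2 signal over the 6 arrays (x axis) and its log2 difference, Pparg ldi/+ minus WT (y axis), with the 41 enzyme genes coloured by call. Gstm1 and Gstm5 at the top, and Gsta3 and Mgst3 at the bottom, stand apart from the rest of the enzyme genes.

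NRF2 binds the antioxidant response element, whose core is TGACNNNGC. The core was searched on both strands, with no other motif, in the promoters that RefSeq gives for 43 of the 48 genes (250 bases before to 50 after the annotated start, GRCm38.p6). It was present in 8 of the 43 (18.6%), against 14.0% of all 27025 genes with a promoter there, and in 12.4% of all 32851 promoters. Of the 7 genes that rose, Gstm5, Srxn1 and Txnrd1 held it, and of the 10 with a promoter that fell, Gsta3 and Sod1 did, so that genes with the core moved both ways. Gclm, Gstm7 and Mgst1 also held it and did not pass. The 5 promoters of called genes with the core follow, because they allow its place to be compared between genes that rose and fell; capitals mark the core, or its reverse complement where it lies on the other strand.
Gstm5 (rose, chr3:107895604-107895903, plus strand): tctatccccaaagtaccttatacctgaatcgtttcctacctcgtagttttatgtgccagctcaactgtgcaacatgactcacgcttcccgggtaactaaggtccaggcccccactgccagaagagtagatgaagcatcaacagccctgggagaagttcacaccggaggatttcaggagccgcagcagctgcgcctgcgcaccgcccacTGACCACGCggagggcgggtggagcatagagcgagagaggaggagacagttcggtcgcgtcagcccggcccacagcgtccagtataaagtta
Srxn1 (rose, chr2:152105274-152105573, plus strand): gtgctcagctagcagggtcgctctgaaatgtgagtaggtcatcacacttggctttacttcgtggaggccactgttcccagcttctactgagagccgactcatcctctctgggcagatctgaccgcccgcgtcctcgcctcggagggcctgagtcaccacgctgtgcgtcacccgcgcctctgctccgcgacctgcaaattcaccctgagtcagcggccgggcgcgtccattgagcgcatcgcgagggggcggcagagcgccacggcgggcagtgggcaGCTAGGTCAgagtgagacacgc
Txnrd1 (rose, chr10:82858956-82859255, plus strand, 1 of its 3 promoters): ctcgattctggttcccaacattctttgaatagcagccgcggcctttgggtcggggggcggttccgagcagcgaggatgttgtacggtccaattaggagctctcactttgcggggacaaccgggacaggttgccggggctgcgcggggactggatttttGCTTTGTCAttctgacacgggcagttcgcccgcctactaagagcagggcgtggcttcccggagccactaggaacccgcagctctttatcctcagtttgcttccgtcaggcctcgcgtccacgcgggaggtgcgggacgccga
Gsta3 (fell, chr1:21240335-21240634, plus strand): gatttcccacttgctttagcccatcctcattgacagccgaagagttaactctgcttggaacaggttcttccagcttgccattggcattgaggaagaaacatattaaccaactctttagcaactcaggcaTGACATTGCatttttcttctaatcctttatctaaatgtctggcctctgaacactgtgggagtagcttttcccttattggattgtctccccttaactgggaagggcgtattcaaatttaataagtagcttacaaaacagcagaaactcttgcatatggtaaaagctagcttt
Sod1 (fell, chr16:90220512-90220811, plus strand): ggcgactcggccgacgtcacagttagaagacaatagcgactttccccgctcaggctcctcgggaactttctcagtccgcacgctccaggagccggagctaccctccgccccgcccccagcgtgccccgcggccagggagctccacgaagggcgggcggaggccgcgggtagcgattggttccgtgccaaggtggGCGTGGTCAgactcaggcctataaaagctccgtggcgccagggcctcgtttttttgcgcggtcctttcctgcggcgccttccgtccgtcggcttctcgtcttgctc
The first base of the match lay 42 bases before the start in Gstm5, 92 in Txnrd1, 121 in Gsta3 and 56 in Sod1, and at base 29 after the start in Srxn1. Gstm5 and Gsta3 carried it on the gene's own strand and the other 3 on the opposite strand. A match says only that the letters are present. Any gene, with or without a match, may also hold the element outside the window, or inside it in other letters, which were not searched.

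Variation between mice of 1 genotype was uneven over these genes. The median pooled standard deviation within genotypes was 0.12 on the log2 scale over the 41 genes and 0.15 over all tested genes. Gstm7 (1.08), Gstm5 (0.54), Gsta4 (0.47), Gstt1 (0.41), Gstt3 (0.38), Gpx3 (0.36) and Gstt2 (0.34) had the largest, and at most 9.01% of tested genes exceeded any of them. For Gstm5 it came from WT (0.77, against 0.03 in Pparg ldi/+), and for Gsta4 from Pparg ldi/+ (0.63, against 0.20 in WT). Within Pparg ldi/+, Gsta4, Gstt1 and Gpx3 were highest on array 2 and lowest on array 3. Array 2 held the largest epididymis and testis marker sums. Gstt3 was also highest there, while Gstm7, Gstm5 and Gstt2 were not. The part of such transcripts in this spread was not tested. Where Pparg ldi/+ was represented by array 3 alone, the array whose epididymis marker sum was as low as in WT, 3 of the 41 genes rose and 8 fell, where 6.54% and 7.94% of all tested genes did. Gstm1, Gstm5 and Srxn1 were the 3 that rose, at 1.71, 2.18 and 1.11. Gsta3, Mgst3, Gstz1, Gstk1, Gsta4, Sod3, Gpx7 and Cat were the 8 that fell, at -2.79, -2.34, -1.32, -1.12, -1.35, -0.73, -0.68 and -0.59. A comparison of 1 array with 3 takes the lone mouse to vary like the others.

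Beyond the enzymes, the regulators and further targets of NRF2 were also read. Of 21 tested genes of this list, 8 rose (38.1%) and 2 fell (9.52%), where 16.3% of all genes rose and 16.4% fell, with a median log2 difference of 0.19. Maff, 1 of the 8, passed the filter through its level in Pparg ldi/+, with a mean log2 value of 9.29 there and 7.15 in WT. Nfe2l2 itself had 3397, 3237 and 3263 in Pparg ldi/+, against 2508, 2508 and 2455 in WT, and rose 1.32-fold (log2 0.40, limma adjusted p = 0.00213). The call of Nfe2l2 was lost with the mean of its probe sets (0.30) and with Pparg ldi/+ array 3 alone (0.39). Keap1 was at -0.22 and did not pass (limma adjusted p = 0.0951). Hmox1, the inducible heme oxygenase, had 3549, 2405 and 4052 in Pparg ldi/+, against 1181, 637 and 531 in WT, and rose 4.27-fold (limma adjusted p = 0.000695). The epoxide hydrolase gene Ephx1 rose by 1.09 and the aldo-keto reductase gene Akr1b8 by 0.91 on the log2 scale. With Pparg ldi/+ array 3 alone, 5 of this list rose and 1 fell, where 6.54% and 7.94% of all genes did.

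In the list of glutathione supply and turnover, 4 of 16 rose (25%) and 2 fell (12.5%), with a median of -0.08, and 16.3% of all genes rose and 16.4% fell. Gss, which completes glutathione synthesis, rose 2.47-fold, at 1589, 1157 and 1470 in Pparg ldi/+ and 597, 573 and 475 in WT (limma adjusted p = 0.000191), while both subunits of the preceding enzyme did not pass. Anpep, an aminopeptidase that acts on cysteinylglycine and is also a surface marker of myeloid cells, rose 3.07-fold. Of 13 genes of NADPH supply, 2 rose (15.4%) and 3 fell (23.1%), with a median of -0.04, shares near those of all genes. Me1, the cytosolic malic enzyme, fell 2.22-fold, at 5108, 4010 and 4697 in Pparg ldi/+ and 9787, 12385 and 8813 in WT (limma adjusted p = 3e-04), and the folate enzyme gene Aldh1l1 fell 1.72-fold. With Pparg ldi/+ array 3 alone, 2 genes of glutathione supply rose and 2 fell, and 3 genes of NADPH supply fell and none rose (0), where 6.54% of all genes rose and 7.94% fell.

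Among 30 other thiol redox proteins, 9 fell (30%) and 4 rose (13.3%), with a median of -0.09, where 16.4% of all genes fell and 16.3% rose. Sesn2, of the sestrins, fell 1.91-fold, and Glrx2, a mitochondrial glutaredoxin, fell 1.57-fold. With Pparg ldi/+ array 3 alone, 5 of these 30 fell and none rose (0), where 7.94% and 6.54% of all genes did. Of 11 further transferase-like and membrane eicosanoid enzyme genes, 3 rose (27.3%) and 1 fell (9.09%), where 16.3% and 16.4% of all genes did. Their median was 0.12. Hpgds, 1 of the 3 and the sigma-class transferase that makes prostaglandin D2, had 530, 585 and 574 in Pparg ldi/+ and 90.0, 119 and 109 in WT. It was tested only through its level in Pparg ldi/+, since its mean log2 value in WT, 7.10, lay under the filter, so its 4.33-fold difference is given as a description. Clic1 rose 2.05-fold. Of 12 genes that form superoxide or peroxide, 5 rose (41.7%) and 2 fell (16.7%), where 16.3% and 16.4% of all genes did. Their median was 0.31. Cybb, the catalytic subunit of the phagocyte NADPH oxidase, rose 3.14-fold (limma adjusted p = 8.18e-06), and the monoamine oxidase gene Maob fell by 1.46 on the log2 scale (limma adjusted p = 1.04e-05). The summed macrophage signal given above was also higher in Pparg ldi/+ than in WT, and its part in these differences was not tested.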

How the data were processed

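RNA of 6 mice was hybridised to 1 array each. The authors deposited 1 linear intensity per probe set and array; the submitters' processing notes name MAS5 for 2 samples, with no version or scaling target, and as detection calls are not used here, whether a dim probe set exceeded background is unknown. Here the deposited intensities were multiplied, array by array, to reach a trimmed mean of 500 (2% left out at each end), and log2 was taken after adding 32, which makes the differences of dim genes smaller. A gene was read by its brightest probe set, sets with suffix x_at left out where it had another. Genes under a mean log2 value of 7.46, the median of all probe set means, were not tested. Symbols come from the platform annotation, updated through RefSeq (GRCm38.p6); 932 probe sets with several symbols were left out, 6 of them naming genes of these families. The test was that of limma 3.58.1 (R 4.3.3, intensity trend, two-sided, no covariates), with Benjamini-Hochberg adjustment over 11201 genes; the fit was tested on simulated data. The genes, lists and alternatives were chosen with earlier results of these data known. Signals on every array are given for the called enzyme genes and the brightest other gene of each class, and, chosen after their values were seen, a few more; per further list the 2 genes with the smallest p are named.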

Additional observations from a re-analysis of the deposited data

How the results depend on the processing

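Across the 19 alternatives, which changed the offset, scaling, filter, variance model, array weights, probe set or arrays, all 19 called enzyme genes kept their sign and 10 kept their call throughout: Gsta3, Gstm1, Gstm5, Gstz1, Gstk1, Mgst3, Gpx7, Cat, Sod3 and Srxn1. The genes that rose numbered 3 with Pparg ldi/+ array 3 alone (all tested genes: 730 rose and 886 fell), where the smaller number of arrays lowers the power, and 5 to 9 leaving out 1 array at a time. The numbers that fell were 8 and 11 to 13. The median of the 41 genes, -0.14, was -0.16 with quantile normalisation, -0.0822 unscaled, -0.11 with no filter, which tested 48, -0.22 with array 3 alone, and -0.20 to -0.0824 leaving out 1 array. Among genes that did not pass, signs turned for Gstt3 (0.0266), Gpx4 (0.0295) and Gsr (0.0136) with unscaled values, for Gstm7 (0.13) and Gstt3 (0.0408) with array weights, and for Gstm7 (0.000132) and Gsr (0.11) with the mean of all probe sets. Leaving out 1 array, they ran from -0.60 to 0.63 for Gstm7, -0.34 to 0.0811 for Gstt1, -0.20 to 0.29 for Gstt3, -0.11 to 0.0546 for Gsr and -0.00898 to 0.14 for Txn1. The cause was not tested. With the number in the titles as a replicate block, 17 of the 19 calls held and 6 genes rose and 11 fell; Gpx8 and Prdx4 did not pass (limma adjusted p = 0.0824 and 0.0718). Deviations of same-numbered arrays from the means of their genotypes correlated at -0.13, -0.09 and -0.09. Deviations from a mean of 3 arrays depend on each other, so these values cannot tell whether the numbers pair litter mates. Without detection calls, the dim genes have no depth limit of their own.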
